A study of Mus musculus with 58 samples.

Results

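The interneuron marker genes are 10 genes chosen by their names: *Gad1*, *Gad2*, *Slc32a1*, *Lhx6*, *Pvalb*, *Calb2*, *Sst*, *Npy*, *Vip* and *Cck*. All 10 were found among the 15171 genes of the count table, with 86 (*Lhx6*) to 15284 (*Gad1*) reads per mouse, and all passed the filter on low counts in every comparison.

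GABAergic interneurons are the local inhibitory cells of cortex and hippocampus. They make GABA from glutamate with the glutamate decarboxylases encoded by *Gad1* and *Gad2*, and the carrier encoded by *Slc32a1* loads GABA into synaptic vesicles. Their classes are told apart by calcium-binding proteins and neuropeptides: parvalbumin (*Pvalb*) marks fast-spiking basket and chandelier cells, somatostatin (*Sst*) marks cells that target dendrites, and vasoactive intestinal peptide (*Vip*) and calretinin (*Calb2*) mark cells that mainly inhibit other interneurons. *Lhx6* is a transcription factor of the interneurons born in the medial ganglionic eminence. None of these genes is wholly restricted to a single class. *Gad1*, *Gad2* and *Slc32a1* also serve the GABAergic projection neurons of the striatum, *Cck* is also made by many excitatory neurons, and *Calb2* by mossy cells of the mouse dentate gyrus and by thalamic neurons.

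RNA was sequenced from 58 mice on the C57BL/6 background, aged 3 months, which were all homozygous for a human *APOE* allele in place of mouse *Apoe*. E3 and E4 mice carried human *APOE3* or *APOE4*, and mice were wild type (Abca1+/+) or heterozygous (Abca1+/-) for *Abca1*, the lipid transporter that loads APOE with lipid. TBI mice received a controlled cortical impact to a depth of 1.0 mm over the left parietal cortex, and sham mice had anesthesia and craniotomy without impact; all were killed at 14 days. The groups held 8 sham and 8 TBI mice of E3/Abca1+/+, 7 and 6 of E3/Abca1+/-, 7 and 7 of E4/Abca1+/+, and 7 and 8 of E4/Abca1+/-, with 3 or 4 mice of each sex in each. Cortex and hippocampus of 1 coronal slice were frozen and extracted together. A fall in a marker in this bulk RNA can thus come from fewer cells, less RNA per cell or more RNA of other cells. These cannot be told apart.

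Total counts ran from 4421308 to 37877346 per mouse. Heterozygous libraries were deeper: 21 of the 28 exceeded the deepest of the 30 wild type libraries. *Abca1* itself had a median of 35.3 CPM in heterozygous and 48.9 CPM in wild type sham mice, with ranges of 28.9 to 42.4 and 33.3 to 60.8 CPM. CPM is the count per 1000000 reads of the library after edgeR's TMM scaling. In 3 mice, markers of regions outside the dissection stood apart. In mouse 8 of E4/Abca1+/- TBI, the summed level of 6 striatal markers was 669 CPM, against 104 to 194 CPM in the 55 mice outside these 3, and that of 8 hippocampal markers was 28.8 CPM against 76.3 to 327 CPM. In mouse 2 of E4/Abca1+/+ sham and mouse 2 of E4/Abca1+/+ TBI, 4 thalamic markers summed to 198 and 144 CPM, against 53.1 to 121 CPM in the 55 others. Calls that depend on these animals are given with and without them, and mice are numbered in the order of their deposition. Markers of the choroid plexus, which lies next to the hippocampus, summed to 10.8 to 2015 CPM over all mice.

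The levels of the 10 genes were first ordered in the 29 sham mice, per kilobase of annotated exon, since longer transcripts collect more reads. *Sst* was highest with 209 ± 26.9 CPM per kilobase (SD, n = 29), followed by *Cck* with 145 ± 15.5, *Gad1* with 103 ± 5.63 and *Npy* with 77.0 ± 9.55. *Gad2* (38.6 ± 3.2), *Pvalb* (37.6 ± 6.71), *Vip* (31.2 ± 2.90) and *Slc32a1* (26.2 ± 3.11) came next, and within this run of 4 genes each neighbouring pair differed by less than the sum of its SDs. *Calb2* stood at 17.9 ± 4.42 and *Lhx6* was lowest with 6.89 ± 0.823 CPM per kilobase. Peptide genes thus held 3 of the 4 highest levels, and the transcription factor the lowest.

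With libraries scaled over all genes, 9 of the 10 interneuron markers were lower over all genotypes in the 29 TBI than the 29 sham mice. *Calb2* did not pass the test. Scaled to 8 general neuronal genes, 2 were lower and 3 higher, beside 448 lower and 12347 higher of all 15171 genes. With scaling over all genes, 24.3% of the 15171 genes were lower and 29% higher after TBI at an adjusted p below 0.05 (edgeR's quasi-likelihood test, Benjamini-Hochberg adjustment over all genes). The median log2 change was -0.21 over the 10 markers and 0.01 over all genes. *Pvalb* fell most, by 0.57 on the log2 scale, to 0.672 of its sham level, followed by *Npy* (-0.35) and *Gad1* (-0.28). *Gad2* fell least, by 0.09.

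Within genotypes the counts were 6, 7, 3 and 5 lower markers and 0 higher markers in each. In E3/Abca1+/+ mice the 6 were *Gad1*, *Slc32a1*, *Pvalb*, *Npy*, *Vip* and *Cck*, where 10.9% of the tested genes were lower and 12.3% higher. In E3/Abca1+/- mice *Sst* joined them to make 7, beside 10% of all genes lower and 13.4% higher. In E4/Abca1+/+ mice *Gad1*, *Pvalb* and *Npy* passed, beside 4.87% lower and 8.82% higher. The 5 of E4/Abca1+/- mice were *Gad1*, *Lhx6*, *Pvalb*, *Sst* and *Cck*, beside 16.4% lower and 17.7% higher. Without mouse 8 of E4/Abca1+/- TBI, all 10 markers passed in that genotype, 9 lower and *Calb2* higher. Of 15046 genes tested, 2865 were then lower and 2668 higher. With all libraries thinned to the lowest total, 2 markers passed in E4/Abca1+/-, *Gad1* and *Sst*, beside 1534 lower and 1888 higher of 13312 genes. *Gad1* and *Pvalb* were thus lower in all 4 genotypes at full depth, with scaling over all genes. Scaled to the neuronal genes, *Gad1* passed in none of the 4, with changes of -0.10 (adjusted p = 0.0876), -0.042 (adjusted p = 0.488), -0.074 (adjusted p = 0.25) and 0.0065 (adjusted p = 0.908), and *Pvalb* passed in the other genotypes but not in E4/Abca1+/-.

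**Figure D1:**
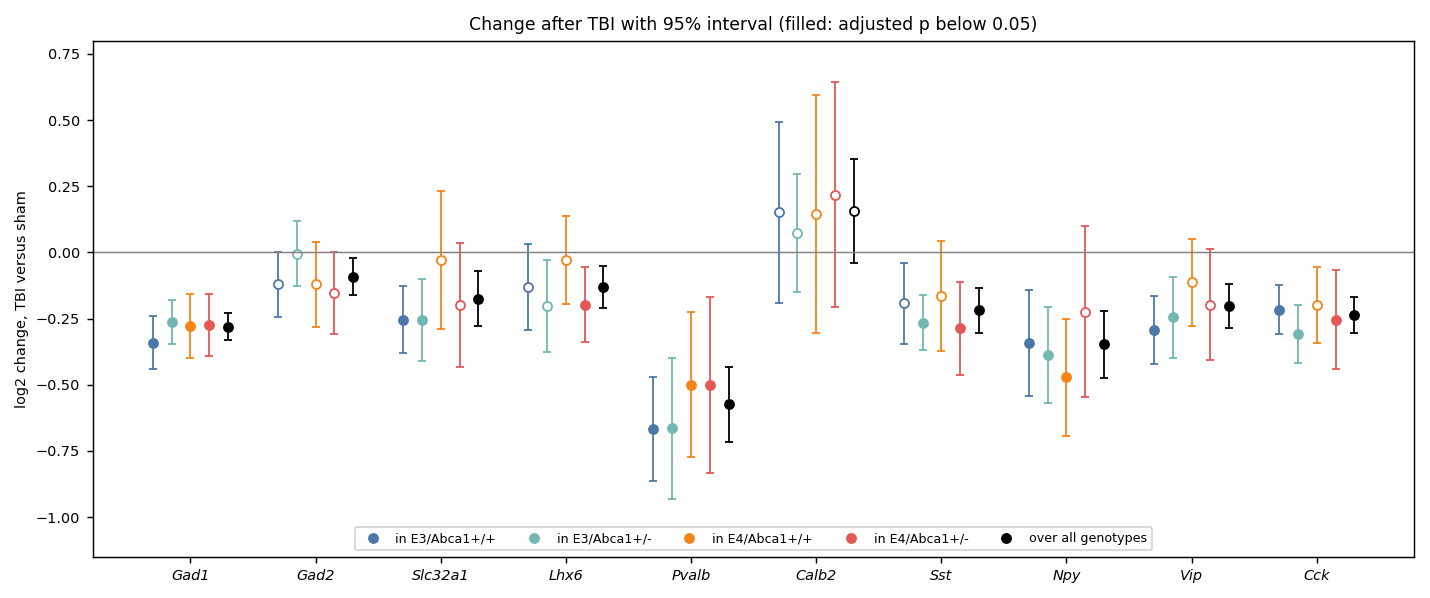
Log2 change from sham to TBI (vertical axis) of each marker within the 4 genotypes and over all genotypes, scaled over all genes, with 95% intervals from the edgeR fit; filled points passed at an adjusted p below 0.05. *Pvalb* lies lowest in every comparison, and *Calb2* is the one gene with all estimates above 0.

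The genes of GABA synthesis and vesicle filling changed unequally. *Gad1* (chr2:70553072-70602014, + strand in GRCm38) encodes GAD67, the decarboxylase that makes most of the brain's GABA. *Gad1* was at 399.8 to 486 CPM (median 458) in the 8 E3/Abca1+/+ sham mice and 329 to 397 CPM (median 356) in the 8 TBI mice. It was at 435 to 475 CPM (median 459) in the 7 E3/Abca1+/- sham mice and 354 to 416 CPM (median 375) in the 6 TBI mice. In both E3 genotypes, every TBI mouse was thus below every sham mouse. Levels in E4 mice were 425 to 522 CPM (median 462) in the 7 E4/Abca1+/+ sham mice and 337 to 438 CPM (median 393) in the 7 TBI mice, and 403 to 464 CPM (median 448) in the 7 E4/Abca1+/- sham mice and 316 to 409 CPM (median 378) in the 8 TBI mice. In these genotypes 6 of the 7 and 7 of the 8 TBI mice lay below the lowest sham mouse. The log2 changes were -0.34 (adjusted p = 2.21e-05) in E3/Abca1+/+, -0.26 (adjusted p = 0.000144) in E3/Abca1+/-, -0.28 (adjusted p = 0.0037) in E4/Abca1+/+ and -0.27 (adjusted p = 0.000901) in E4/Abca1+/-. Over all genotypes it was -0.28 ± 0.026 (SE), adjusted p = 4.18e-14, and all 29 TBI mice were below the median sham mouse of all genotypes.

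*Gad2* (chr2:22622205-22693874, + strand) encodes GAD65, the form tied to synaptic terminals. Its level was 221 ± 18.4 CPM (SD, n = 29) in all sham mice and 208 ± 21.7 CPM (SD, n = 29) in all TBI mice, and the ranges overlapped in every genotype. The change over all genotypes was -0.091 ± 0.035 (SE), adjusted p = 0.0258, and none of the 4 genotypes passed alone, with changes from -0.15 to -0.0042. It did pass in E4/Abca1+/- mice without mouse 8 (-0.20, adjusted p = 0.0273). The highest *Gad2* level of all mice, 287 CPM, was that of mouse 2 of E4/Abca1+/+ sham, which had high thalamic markers.

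*Slc32a1* (chr2:158610767-158615748, + strand) encodes VGAT, the vesicular GABA transporter. It was at 61.8 to 80.5 CPM (median 69.4) in the 8 E3/Abca1+/+ sham mice and 54.2 to 68.5 CPM (median 58.1) in the 8 TBI mice, and at 73.5 to 88.5 CPM (median 83.9) in the 7 E3/Abca1+/- sham mice and 60.0 to 84.4 CPM (median 64.7) in the 6 TBI mice. All but 1 of the TBI mice of each E3 genotype lay below the lowest sham mouse. Levels were 63.6 to 83.7 CPM (median 71.2) in the 7 E4/Abca1+/+ sham mice and 54.9 to 112 CPM (median 65.2) in the 7 TBI mice, and 58.8 to 86.8 CPM (median 72) in the 7 E4/Abca1+/- sham mice and 43.5 to 82.3 CPM (median 62.7) in the 8 TBI mice, so that the groups overlapped widely in E4. The fall passed in E3/Abca1+/+ (-0.25, adjusted p = 0.00415) and E3/Abca1+/- (-0.25, adjusted p = 0.0174) and not in E4/Abca1+/+ (-0.027, adjusted p = 0.923) or E4/Abca1+/- (-0.20, adjusted p = 0.184). Both E3 falls missed the threshold when 1 spread was estimated over all 58 mice (adjusted p = 0.0669 and 0.0834). The level of 112 CPM in E4/Abca1+/+ TBI was that of mouse 2, and the next highest of that group was 70.9 CPM. Without mouse 2 of TBI, the change in E4/Abca1+/+ was -0.17 (adjusted p = 0.131). Without mouse 8, the change in E4/Abca1+/- was -0.27 (adjusted p = 0.0483). An antisense RNA, Gm14205, shares 697 of the 2797 exon bases of *Slc32a1*, and since the strand setting of the counting is not given, reads of the pair cannot be told apart.

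*Lhx6* (chr2:36081953-36105408, - strand), the transcription factor of *Pvalb* and *Sst* interneurons, was the marker of lowest level. It was 25.5 ± 3.04 CPM (SD, n = 29) in sham and 23.2 ± 2.02 CPM (SD, n = 29) in TBI mice, with 0 of the 29 TBI mice below the lowest sham mouse and 26 below the median sham mouse. The change over all genotypes was -0.13 ± 0.039 (SE), adjusted p = 0.00391, and with libraries thinned to the lowest total it missed the threshold (adjusted p = 0.062). Within genotypes it passed in E4/Abca1+/- (-0.20, adjusted p = 0.0327), and the changes elsewhere ran from -0.20 in E3/Abca1+/- to -0.027 in E4/Abca1+/+. Another annotated gene, Gm27953, shares 104 of the 3699 exon bases of *Lhx6* on the same strand. Reads of these bases cannot be assigned to either gene.

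*Pvalb* (chr15:78191114-78206400, - strand), a fast calcium buffer of fast-spiking cells, had the largest fall of the 10. It was at 31.3 to 46.4 CPM (median 37.2) in the 8 E3/Abca1+/+ sham mice and 17.6 to 27.4 CPM (median 24.7) in the 8 TBI mice, and at 36.2 to 67.1 CPM (median 42.1) in the 7 E3/Abca1+/- sham mice and 24.6 to 32.2 CPM (median 28.0) in the 6 TBI mice. The E3 groups did not overlap. Levels were 33.4 to 40.3 CPM (median 38.2) in the 7 E4/Abca1+/+ sham mice and 16.8 to 37.1 CPM (median 28.4) in the 7 TBI mice, and 29 to 46.2 CPM (median 36.1) in the 7 E4/Abca1+/- sham mice and 16.4 to 43.5 CPM (median 24.9) in the 8 TBI mice. The highest TBI level of E4/Abca1+/-, 43.5 CPM, was that of mouse 8, and the next was 31.6 CPM. The changes were -0.67 (adjusted p = 2.36e-05) and -0.66 (adjusted p = 0.000981) in E3/Abca1+/+ and E3/Abca1+/-, and -0.50 (adjusted p = 0.0154) and -0.50 (adjusted p = 0.0202) in E4/Abca1+/+ and E4/Abca1+/-. The last value was -0.64 (adjusted p = 0.000722) without mouse 8, and -0.39 (adjusted p = 0.0628) with thinned libraries. Over all genotypes the change was -0.57 ± 0.071 (SE), adjusted p = 5.63e-10, and 28 of the 29 TBI mice were below the sham median.

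*Calb2* (chr8:110137502-110168210, - strand), the other calcium-binding protein gene, was the 1 marker that did not pass over all genotypes. It was at 15.1 to 35 CPM (median 27.9) in the 8 E3/Abca1+/+ sham mice and 15.8 to 41.2 CPM (median 33.9) in the 8 TBI mice, and at 26.4 to 43.0 CPM (median 34.8) in the 7 E3/Abca1+/- sham mice and 33.6 to 45.5 CPM (median 35.1) in the 6 TBI mice. It was at 22.0 to 54.8 CPM (median 32.9) in the 7 E4/Abca1+/+ sham mice and 25.2 to 63.3 CPM (median 33.6) in the 7 TBI mice, and at 20.3 to 36.9 CPM (median 28.5) in the 7 E4/Abca1+/- sham mice and 10.3 to 41.5 CPM (median 37.4) in the 8 TBI mice. All groups overlapped, and the changes were 0.15, 0.07, 0.15 and 0.22 in that order, with no adjusted p below 0.44. Scaled to the neuronal genes, *Calb2* was higher in E3/Abca1+/+ (0.37, adjusted p = 0.0366) and E3/Abca1+/- (0.30, adjusted p = 0.0409). The 3 mice with markers of other regions held extreme levels of this gene: 10.3 CPM in mouse 8 of E4/Abca1+/- TBI, and 63.3 and 54.8 CPM in mouse 2 of E4/Abca1+/+ TBI and sham, which were the lowest and the highest 2 of all 58 mice. Without mouse 2 of TBI the E4/Abca1+/+ change was -0.039 (adjusted p = 0.932), and without mouse 2 of sham 0.35 (adjusted p = 0.265). Over all genotypes the change was 0.16 ± 0.10 (SE), adjusted p = 0.182, with a 95% interval of -0.041 to 0.35. Without the 3 mice it was 0.18 ± 0.072 (SE), adjusted p = 0.0293, and without mouse 8 alone 0.19 ± 0.084 (SE), adjusted p = 0.0523. In E4/Abca1+/- without mouse 8 it was 0.35 ± 0.10 (SE), adjusted p = 0.0102, where the other 7 TBI mice ranged from 35.3 to 41.5 CPM and the sham mice from 20.3 to 36.9 CPM.

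**Figure D2:**
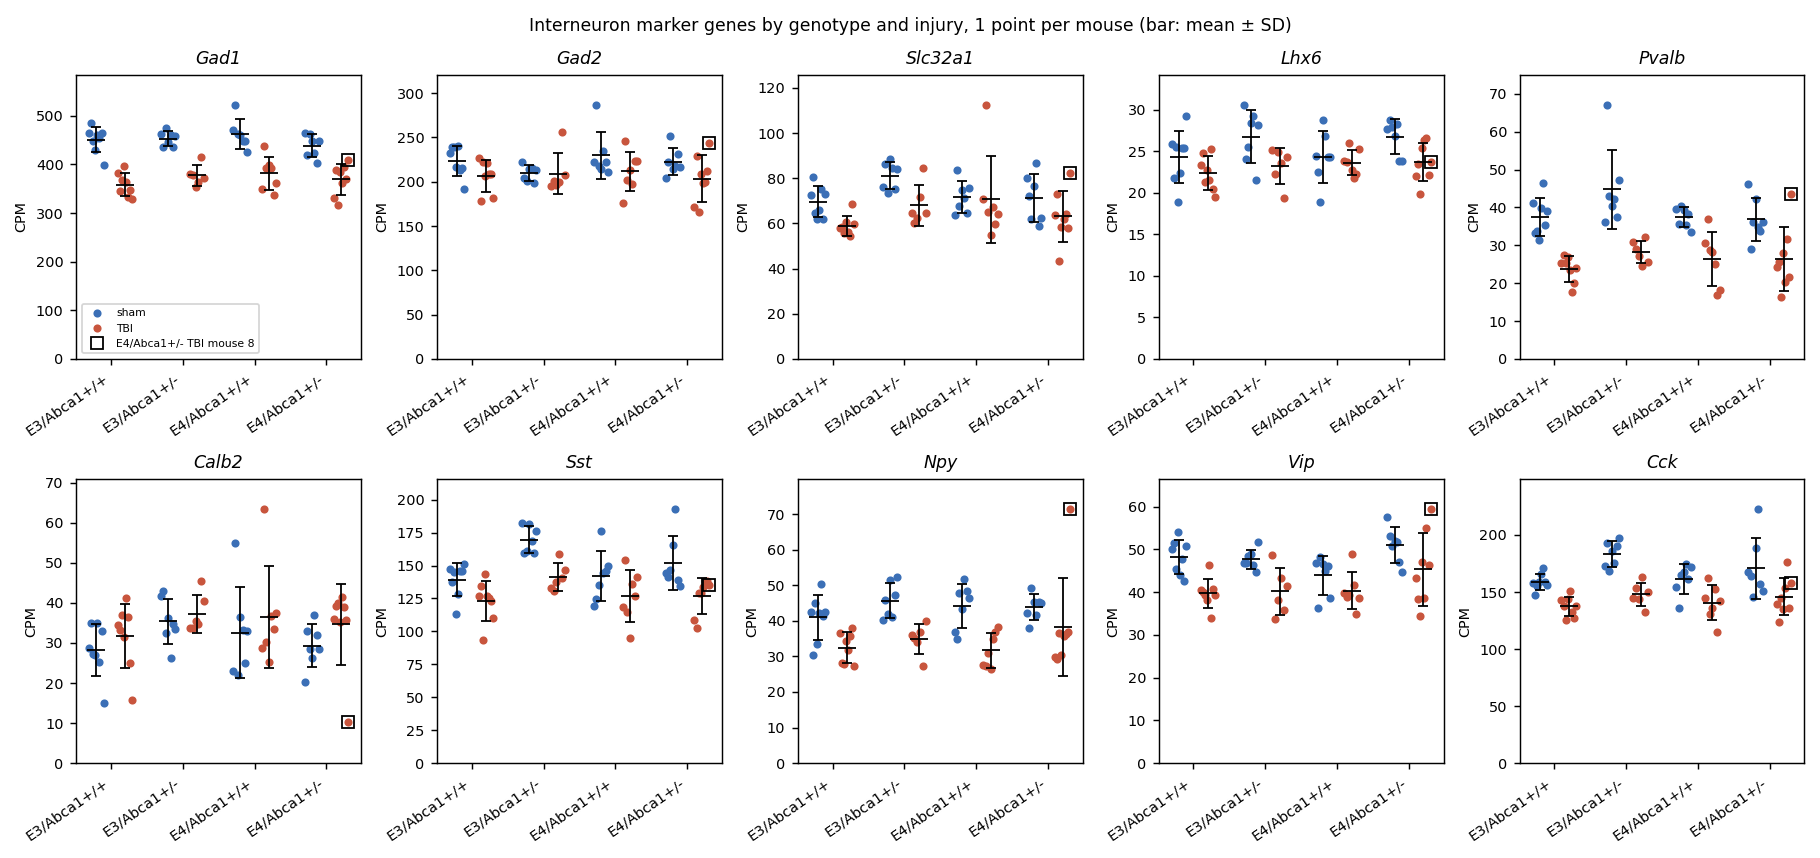
CPM of each marker in every mouse, by genotype, with sham in blue and TBI in red; bars give the mean ± SD of each group, and the square marks mouse 8 of E4/Abca1+/- TBI. *Gad1* and *Pvalb* separate by injury in both E3 genotypes, and the marked mouse is the highest of all 58 for *Npy* (71.3 CPM) and the lowest for *Calb2* (10.3 CPM).

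The 4 neuropeptide genes all fell over all genotypes with scaling over all genes, and none passed when scaled to the neuronal genes. Promoters were searched for the cAMP response element, which factors of the CREB family bind, in its full form TGACGTCA and its core TGACG. Promoters of *Vip* and *Cck* are shown as the peptide genes whose core lies before the start of transcription in both annotations used. The stretch from base 100 to base 21 before the start is given 5′ to 3′ on the gene's strand (RefSeq, GRCm38.p6), with the core in capitals.
Vip (chr10:5639118-5639197, + strand): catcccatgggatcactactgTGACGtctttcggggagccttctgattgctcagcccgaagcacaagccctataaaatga
Cck (chr9:121495715-121495794, - strand): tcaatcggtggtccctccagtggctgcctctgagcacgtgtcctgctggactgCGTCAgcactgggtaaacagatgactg

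*Vip* held TGACG 79 bases before the start, and *Cck* held CGTCA, its reverse complement, 47 bases before the start. *Sst* held the full palindrome, whose first base lay 48 bases before the RefSeq start. GENCODE places the start of *Sst* 114 bases further upstream, so the element lies inside the first exon of that annotation, and its surroundings are not shown. Windows of 300 bases, 250 before and 50 after the start, were available for 9 of the 10 markers, 12 windows in all. The core stood in either orientation in 4 of the 12 (1 each of *Vip*, *Cck*, *Sst* and *Gad2*), and in 20.8% of all 32851 windows. The palindrome, which contains the core, stood in 1 of the 12 and in 1.79% of all. A match of letters is not a measured binding site.

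*Sst* (chr16:23889573-23890958, - strand) was at 113 to 151 CPM (median 146) in the 8 E3/Abca1+/+ sham mice and 93.1 to 143 CPM (median 126) in the 8 TBI mice, and at 159 to 182 CPM (median 169) in the 7 E3/Abca1+/- sham mice and 130.5 to 159 CPM (median 139) in the 6 TBI mice. The groups did not overlap in E3/Abca1+/-, and 2 of the 8 TBI mice were below all sham mice in E3/Abca1+/+. In E4, *Sst* was at 119 to 176 CPM (median 144) in the 7 E4/Abca1+/+ sham mice and 94.8 to 154 CPM (median 127) in the 7 TBI mice, and 134 to 193 CPM (median 144) in the 7 E4/Abca1+/- sham mice and 103 to 139 CPM (median 132) in the 8 TBI mice. The changes were -0.19 (adjusted p = 0.0649) in E3/Abca1+/+, -0.27 (adjusted p = 0.000927) in E3/Abca1+/-, -0.17 (adjusted p = 0.304) in E4/Abca1+/+ and -0.29 (adjusted p = 0.0125) in E4/Abca1+/-. Over all genotypes the change was -0.22 ± 0.042 (SE), adjusted p = 1.62e-05, with 26 of the 29 TBI mice below the sham median.

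*Npy* (chr6:49822710-49829507, + strand), the gene of neuropeptide Y, is made by part of the *Sst* cells and by neurogliaform cells. It was at 30.5 to 50.3 CPM (median 42.3) in the 8 E3/Abca1+/+ sham mice and 27.2 to 38.0 CPM (median 33.0) in the 8 TBI mice, and at 40.3 to 52.3 CPM (median 45.8) in the 7 E3/Abca1+/- sham mice and 27.2 to 40.0 CPM (median 35.6) in the 6 TBI mice. Every TBI mouse was below the sham mice in E3/Abca1+/-. In E4, *Npy* was at 34.8 to 51.7 CPM (median 46.5) in the 7 E4/Abca1+/+ sham mice and 26.5 to 38.2 CPM (median 30.9) in the 7 TBI mice, and 38.0 to 49.3 CPM (median 45.1) in the 7 E4/Abca1+/- sham mice and 29.3 to 71.3 CPM (median 36.0) in the 8 TBI mice. The fall passed in E3/Abca1+/+ (-0.34, adjusted p = 0.0132), E3/Abca1+/- (-0.39, adjusted p = 0.00325) and E4/Abca1+/+ (-0.47, adjusted p = 0.00583). In E4/Abca1+/- it was -0.22 (adjusted p = 0.283) with mouse 8 and -0.42 (adjusted p = 0.000163) without it, where 7 of the 8 TBI mice were below all sham mice and mouse 8 above them. Over all genotypes the change was -0.35 ± 0.063 (SE), adjusted p = 4.21e-06, and -0.40 ± 0.048 (SE), adjusted p = 4.23e-10 without mouse 8.

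*Vip* (chr10:5639218-5647617, + strand) was 47.7 ± 4.44 CPM (SD, n = 29) in sham and 41.5 ± 6.01 CPM (SD, n = 29) in TBI mice. In the E3 genotypes it was at 42.6 to 54.0 CPM (median 49.0) in the 8 E3/Abca1+/+ sham mice and 33.9 to 46.3 CPM (median 39.7) in the 8 TBI mice, and at 44.8 to 51.7 CPM (median 46.9) in the 7 E3/Abca1+/- sham mice and 33.8 to 48.8 CPM (median 39.7) in the 6 TBI mice, and 7 of 8 and 5 of 6 TBI mice lay below all sham mice. In the E4 genotypes it was at 36.2 to 48.2 CPM (median 46.2) in the 7 E4/Abca1+/+ sham mice and 34.9 to 48.9 CPM (median 39.4) in the 7 TBI mice, and at 44.8 to 57.6 CPM (median 51.8) in the 7 E4/Abca1+/- sham mice and 34.5 to 59.4 CPM (median 44.9) in the 8 TBI mice, with 1 TBI mouse of each above all sham mice. The fall passed in E3/Abca1+/+ (-0.29, adjusted p = 0.00131) and E3/Abca1+/- (-0.25, adjusted p = 0.0198), not in E4/Abca1+/+ (-0.11, adjusted p = 0.39), and in E4/Abca1+/- without mouse 8 (-0.27, adjusted p = 0.0242) but not with it (-0.20, adjusted p = 0.138). Over all genotypes the change was -0.20 ± 0.042 (SE), adjusted p = 4.14e-05.

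*Cck* (chr9:121489824-121495694, - strand), the gene of cholecystokinin, was at 147 to 171 CPM (median 158) in the 8 E3/Abca1+/+ sham mice and 126 to 151 CPM (median 138) in the 8 TBI mice, and at 168 to 197 CPM (median 186) in the 7 E3/Abca1+/- sham mice and 132 to 163 CPM (median 147) in the 6 TBI mice. The E3/Abca1+/- groups did not overlap. In E4 it was at 136 to 175 CPM (median 164) in the 7 E4/Abca1+/+ sham mice and 115 to 162 CPM (median 142) in the 7 TBI mice, and 146 to 222 CPM (median 164) in the 7 E4/Abca1+/- sham mice and 124 to 176 CPM (median 143) in the 8 TBI mice. The changes were -0.22 (adjusted p = 0.0011), -0.31 (adjusted p = 0.000347), -0.20 (adjusted p = 0.0637) and -0.25 (adjusted p = 0.0337) in the same order, and -0.24 ± 0.034 (SE), adjusted p = 4.58e-08 over all genotypes. In E4/Abca1+/+, *Cck* passed without mouse 2 of TBI (adjusted p = 0.0274) or without mouse 2 of sham (adjusted p = 0.0234), and then 4 markers passed there. Of all genes tested, 692 of 14310 were lower and 1311 higher without mouse 2 of TBI. Without mouse 2 of sham, 634 of 13897 were lower and 1206 higher. With thinned libraries *Cck* missed the threshold in E4/Abca1+/- (-0.16, adjusted p = 0.187).

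Markers of neurons in general and of glia moved at the same time. Of 8 genes of neurons of all kinds, 6 were lower over all genotypes (median -0.20), among them *Snap25* (-0.37), *Rbfox3* (-0.28), *Eno2* (-0.22) and *Syt1* (-0.22). Of 8 genes of excitatory principal neurons, 8 were lower (median -0.25; 2 lower and 2 higher when scaled to the neuronal genes), among them the layer gene *Tbr1* (-0.37). All 5 astrocyte genes and all 6 microglia genes were higher (medians 0.56 and 1.22), with *Gfap* at 2.39 and *C1qa* at 2.13. The summed level of the 8 general neuronal genes was 7010 to 9509 CPM in TBI mice and 9436 to 10479 CPM in sham mice. The interneuron markers were therefore also measured with each library scaled to the 8 general neuronal genes in place of all genes. The sum of their counts set this scale, and *Snap25* had the highest median level of the 8. The 8 genes did not move alike: on their own scale 2 were lower and 3 higher. Their changes ran from -0.15 (*Snap25*) to 0.18 (*Stmn2*).

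Relative to the neuronal genes, 2 of the 10 interneuron markers were lower and 3 higher over all genotypes. Of all 15171 genes, 448 were lower and 12347 higher on this scale. The median change over all genotypes was 0.02 for the 10 markers and 0.24 for all genes, which the scaling moves upward. *Pvalb* was still lower (-0.36 ± 0.065 SE, adjusted p = 2.34e-06), and *Gad1* by a small amount (-0.053 ± 0.025 SE, adjusted p = 0.0448). *Gad2* (0.14, adjusted p = 0.000896), *Lhx6* (0.094, adjusted p = 0.0271) and *Calb2* (0.38, adjusted p = 0.000611) were higher on this scale. *Sst*, *Vip*, *Cck* and *Slc32a1* lay between -0.0090 and 0.05 and did not pass, and *Npy* was at -0.12 (adjusted p = 0.0509). The 95% interval for *Sst* was -0.080 to 0.10, for *Vip* -0.053 to 0.092 and for *Cck* -0.080 to 0.062. Within genotypes, *Pvalb* was lower on this scale in E3/Abca1+/+ (-0.43), E3/Abca1+/- (-0.45) and E4/Abca1+/+ (-0.31), and at -0.24 (adjusted p = 0.107) in E4/Abca1+/-.

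**Figure D3:**
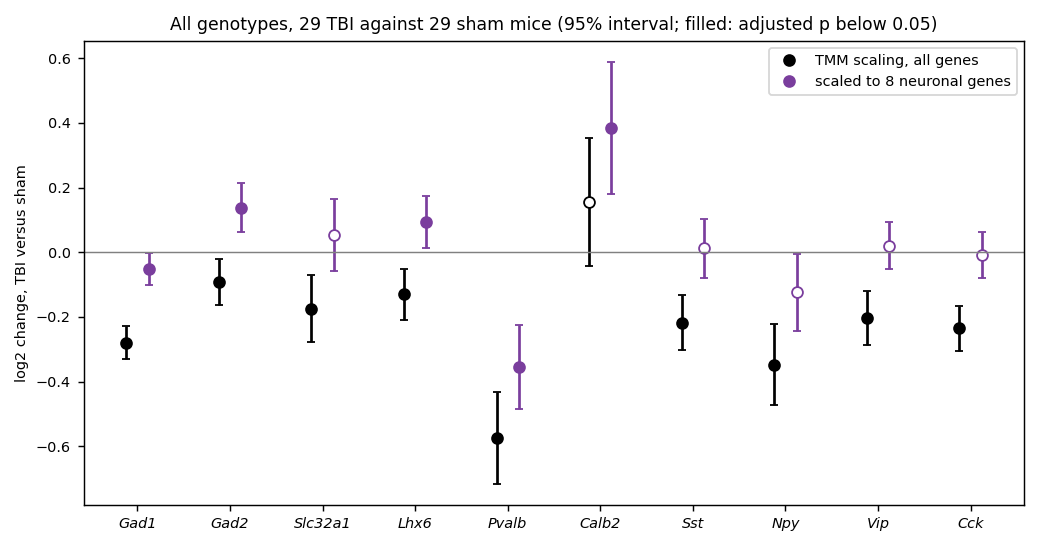
Log2 change from sham to TBI over all genotypes (vertical axis, with 95% intervals) of each marker, scaled over all genes (black) and to 8 neuronal genes (violet); filled points passed at an adjusted p below 0.05. *Pvalb* is lower on both scales (-0.57 and -0.36), while *Gad2* and *Lhx6* change sign and *Sst*, *Vip* and *Cck* move next to 0.

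The 38 other genes of GABA handling and interneuron classes moved in both directions. Over all genotypes 14 were lower and 6 higher, with a median of -0.05, and relative to the neuronal genes 3 were lower and 22 higher. Of all 15171 genes, 24.3% were lower and 29% higher with scaling over all genes. Relative to the neuronal genes, 448 were lower and 12347 higher. *Syt2*, a vesicle calcium sensor of fast-spiking terminals (-1.01, adjusted p = 9.43e-12), and *Lamp5*, a membrane protein of neurogliaform and other cells (-0.90, adjusted p = 1.58e-16), fell on both scales. *Kcnc1*, a potassium channel gene of fast-spiking cells, fell by 0.26 and was at -0.029 (adjusted p = 0.417) relative to the neuronal genes. Of the 10 receptors of the 4 peptides in the table, 7 were lower and 2 higher, against 1 lower and 4 higher relative to the neuronal genes. Of markers of other regions and cells, 2 of 8 hippocampal genes were lower (*Dsp* and *Lct*), 2 thalamic genes were lower and 2 higher of 4, 2 of 4 oligodendrocyte genes and 2 of 3 endothelial genes were higher, and 0 of 6 striatal and 0 of 4 choroid plexus genes were called by edgeR, with 1 and 0 at an unadjusted p below 0.05. *Cckbr*, the brain cholecystokinin receptor (-0.54), fell on both scales, and *Vipr2*, a VIP receptor (0.58), rose on both. *Npy1r* (-0.23) and *Vipr1* (-0.27) fell with scaling over all genes and were at -0.0067 and -0.049 relative to the neuronal genes, neither of which passed.

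Whether the response to injury differed by *APOE* isoform or *Abca1* copies was tested by interactions over the 58 mice. By edgeR, 0 of the 10 markers passed for isoform by injury, *Abca1* by injury or all 3 factors, 0 had an unadjusted p below 0.05, and DESeq2's Wald test also called 0. Among all genes the shares were 0.00659%, 0% and 0%. The difference of the injury effect between E4 and E3 ran from -0.065 (*Gad2*) to 0.17 (*Pvalb*) on the log2 scale, with an interval of -0.11 to 0.46 for *Pvalb* and -0.068 to 0.14 for *Gad1*. Between Abca1+/- and Abca1+/+ it ran from -0.11 (*Lhx6*) to 0.11 (*Npy*), with an interval of -0.14 to 0.36 for *Npy*. The widest intervals were those of *Calb2*, -0.31 to 0.47 and -0.39 to 0.40. The genotypes' counts of lower markers are thus not shown to differ.

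No marker was called for *APOE* isoform. Averaged over injury and *Abca1*, 0 of 10 passed between E4 and E3, 0 with an unadjusted p below 0.05 and 0 by DESeq2's Wald test, beside 15% of all genes. The differences ran from -0.06 (*Sst*, interval -0.15 to 0.021) to 0.04 (*Vip*, interval -0.042 to 0.13).

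Between the *Abca1* genotypes, 2 of the 10 markers differed, a share near the 17.9% of all genes called in either direction. With 1 *Abca1* copy, *Sst* and *Cck* were higher, by 0.15 ± 0.042 (SE), adjusted p = 0.0112, and 0.11 ± 0.034 (SE), adjusted p = 0.0161. *Sst* averaged 147 ± 21.3 CPM (SD, n = 28) in heterozygous and 133 ± 17.8 CPM (SD, n = 30) in wild type mice, and *Cck* 162 ± 23.1 and 149 ± 15.2 CPM. Both means were higher in heterozygotes in 4 of the 4 pairs of groups with the same isoform and injury, by unequal amounts. The gap was widest in E3 sham mice (*Sst* 169.8 against 139.3 CPM, *Cck* 183.2 against 158.7 CPM). In E4 TBI mice *Sst* averaged 127.0 against 126.7 CPM. In E4 sham mice the median of *Cck* was 163.7 CPM in heterozygous and 164.5 CPM in wild type mice. Heterozygous libraries were 2.26 times deeper by the median. With every library thinned to the same total, the differences over all groups were 0.15 (adjusted p = 0.0191) for *Sst* and 0.11 (adjusted p = 0.0346) for *Cck*. Anything else that set the heterozygous libraries apart in their making cannot be told apart from the genotype. Without the 3 mice with markers of other regions, *Calb2* was higher too (0.22, adjusted p = 0.0249).

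Between the sexes, 1 of the 10 markers differed, a share near the 10.1% of all genes called. *Npy* averaged 41.9 ± 9.37 CPM (SD, n = 28) in female and 36.3 ± 6.21 CPM (SD, n = 30) in male mice, and the female mean was higher in 7 of the 8 groups. The difference was 0.21 ± 0.056 (SE), adjusted p = 0.0149. Mouse 8 of E4/Abca1+/- TBI is female, and without it the difference was 0.16 (adjusted p = 0.0139). The other 9 markers differed by -0.12 (*Pvalb*) to 0.03 (*Sst*).

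How the markers vary from mouse to mouse was described after removing the 8 group means. Over the 45 pairs of markers, 34 had a positive Pearson's r over the 58 mice, with a median of 0.15. *Gad1* and *Gad2* varied together most (r = 0.66), followed by *Sst* and *Cck* (0.55), *Gad1* and *Pvalb* (0.54) and *Slc32a1* and *Pvalb* (0.51). *Lhx6* was closest to *Sst* (0.45). *Calb2* ran against *Vip* (-0.46) and *Npy* (-0.43), values that without mouse 8 of E4/Abca1+/- TBI were -0.31 and -0.11. All points share their library with both genes, and no p is given.

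**Figure D4:**
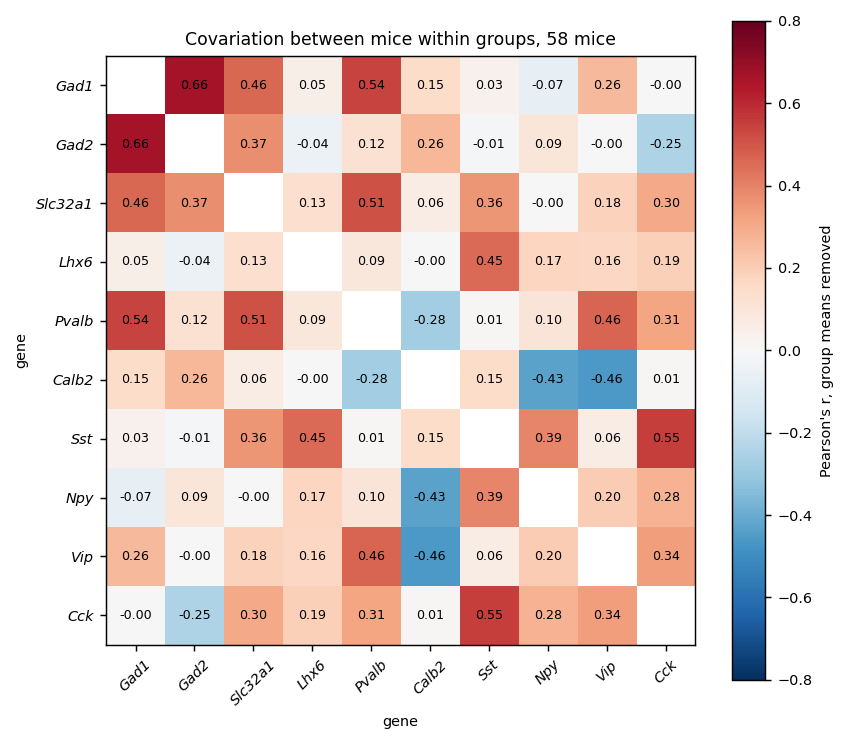
Pearson's r between the markers over 58 mice, on log2(CPM + 1) with the mean of each group removed; red is positive and blue negative. *Gad1* is positive with *Gad2*, *Slc32a1* and *Pvalb* (0.66, 0.46 and 0.54), and the lowest values are those of *Calb2* with *Vip* and *Npy* (-0.46 and -0.43).

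Markers of neighbouring regions varied with several of these genes. *Calb2* followed the summed hippocampal markers (r = 0.69 over 58 mice, 0.53 over the 55 without the 3 mice). *Npy* followed the summed excitatory markers (0.61 and 0.61) and ran against the thalamic ones (-0.49 and -0.57). Its r with the striatal markers was 0.62 over all mice and 0.19 without the 3. With the hippocampal markers the r of *Npy* was -0.19 over all mice and 0.53 without the 3. *Slc32a1* followed the thalamic markers (0.50 and 0.38), as did *Gad1* (0.46 and 0.30). *Pvalb* ran against the hippocampal markers (-0.45 and -0.31), as did *Vip* (-0.42 and -0.24). *Cck* followed the excitatory markers (0.57 and 0.55) and ran against the thalamic ones (-0.36 and -0.41). How much of the differences between groups came with tissue of other regions was not tested, beyond leaving out the 3 mice.

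**Figure D5:**
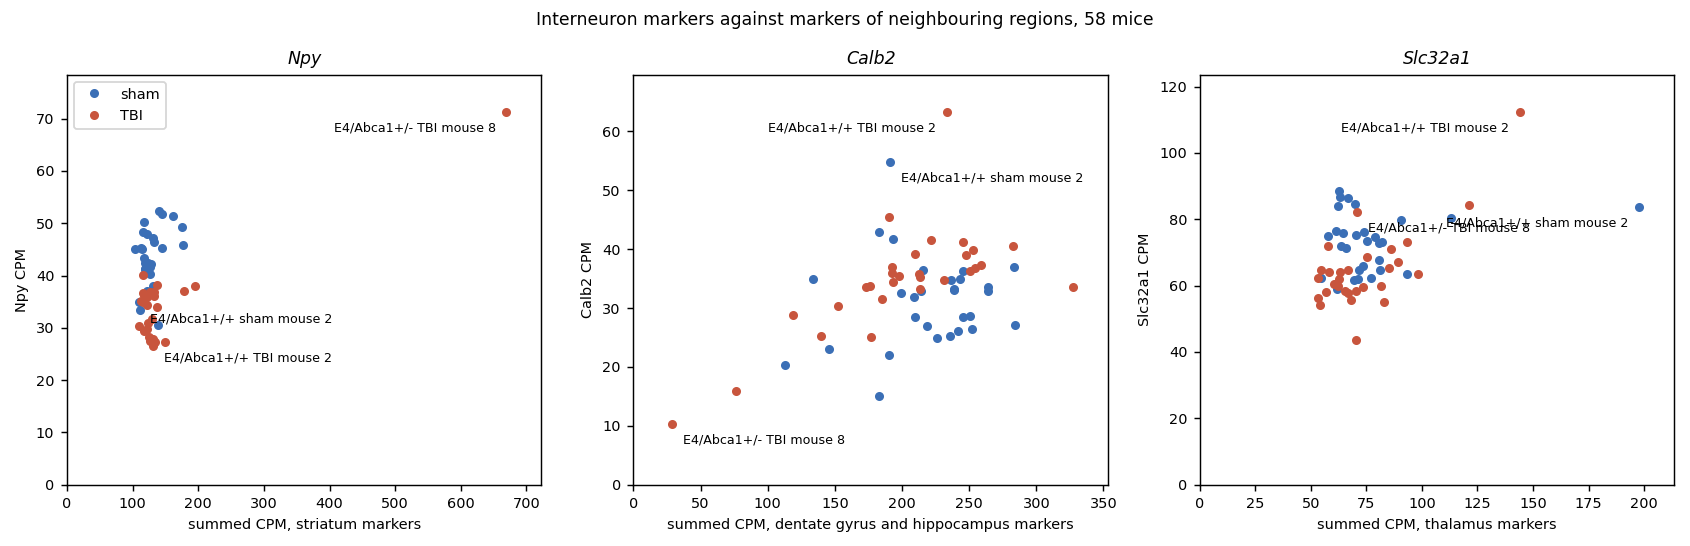
CPM of *Npy*, *Calb2* and *Slc32a1* (vertical axes) against the summed CPM of striatal, hippocampal and thalamic markers (horizontal axes), 1 point per mouse, sham in blue and TBI in red, with the 3 named mice labelled. Mouse 8 of E4/Abca1+/- TBI lies alone at 669 CPM of striatal and 28.8 CPM of hippocampal markers.

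Among 14380 genes with a mean of at least 1 CPM, the 3 closest to each marker on the same measure were listed. *Pvalb* was closest to *Kcnab3* (r = 0.83), a potassium channel subunit that fell by 0.76 after TBI, *Necab3* (0.79) and *Cdk16* (0.78). *Gad1* was closest to the neurofilament gene *Nefh* (0.71), *Ankrd34b* (0.70) and *Bend6* (0.70). *Gad2* was closest to *Usp29* (0.75), *Klhl13* (0.72) and *Tacr1* (0.70), and *Slc32a1* to *Abhd8* (0.83), *Irf2bp1* (0.81) and *Tpgs1* (0.78). *Calb2* was closest to *Dlk1* (0.78), *Lhx9* (0.78) and *Nnat* (0.75). The peptide genes were closest to *Aplp1*, *Ap2s1* and *Npdc1* for *Sst* (0.68 to 0.67), *Inf2*, *Gng7* and *Rasd2* for *Npy* (0.83 to 0.77), *Gm11549*, *Prkcz* and *Stx1a* for *Vip* (0.69 to 0.67), and *Rprml*, *Rundc3a* and *Psd* for *Cck* (0.75 to 0.74). *Lhx6* had the weakest neighbours, *6330408A02Rik*, *Tpst1* and *Tmed9* (0.52 to 0.50). These lists were unstable: of the 30 pairs, 13 returned with Spearman's rho and 6 among the sham mice alone, so the names describe these libraries only.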

How the data were processed

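RNA of 58 mice was measured by RNA-seq, and the authors deposited raw counts of reads per gene as whole numbers without normalization. The submitters' processing notes name the build mm10, Subread 1.5.0 and featureCounts. The strand setting is not given in the sources used here. The table of 15171 genes held 2 empty lines, which were dropped, and 23 gene symbols damaged into calendar dates, which the gene identifiers restored. Among 183 pairs of mice within groups, 0 were identical. Depth was 4421308 to 37877346 counts per mouse. Replicate numbers follow deposition order. No source ties mice to litters, so p-values measure the spread between these animals.

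Groups were compared with edgeR 4.0.16 in R 4.3.3 (TMM, filterByExpr, quasi-likelihood test, Benjamini-Hochberg adjusted p below 0.05 over all genes tested). Each genotype had its own fit for TBI against sham, and a single fit over 58 mice gave the averaged effects and interactions, with sex added as a term for the comparison of sexes. DESeq2 1.42.0 was an alternative. Levels are CPM, and likeness used log2(CPM + 1). Exon lengths came from GENCODE on GRCm38. The tests were tried on simulated counts. The members and lists were chosen with earlier results of these data known, and the genes named are the 10 markers, up to 4 per list with the smallest p after TBI, and the 3 closest to each marker. Some genes of the lists are counted but not reported by name here. The 3 mice left out were chosen after seeing the data.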

Additional observations from a re-analysis of the deposited data

Results flagged for a closer look

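In 8 of the 80 combinations of marker and group, 1 mouse stood apart by Dixon's criterion at 95% (gap to the nearest mouse over the range of the group). Chance gives such a gap in about 1 in 20 groups, which is 4 here.

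Mouse 8 of E4/Abca1+/- TBI stood apart in 2 markers, with the highest *Npy* (71.3 CPM, others 29.3 to 36.9) and the lowest *Calb2* (10.3 CPM, others 35.3 to 41.5) of its group, and its striatal markers were the highest of all mice. Mouse 2 of E4/Abca1+/+ TBI had the highest *Slc32a1* (112 CPM, others 54.9 to 70.9) and the highest *Calb2* (63.3 CPM, others 25.2 to 37.4). Mouse 2 of E4/Abca1+/+ sham had the highest *Gad2* (287 CPM, others 211 to 235). These are the 3 mice with markers of striatum or thalamus.

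The other gaps were in mice that were not left out. They were *Gad2* in mouse 5 of E3/Abca1+/- TBI (256 CPM, others 195 to 208), *Slc32a1* in mouse 7 of E3/Abca1+/+ TBI (68.5 CPM, others 54.2 to 60.4) and *Pvalb* in mouse 2 of E3/Abca1+/- sham (67.1 CPM, others 36.2 to 47.1). No response to TBI differed between genotypes by an interaction test.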

How the results depend on the processing

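Scaling to 8 neuronal genes changed the most. The number of markers called became 2 in E3/Abca1+/+ (*Pvalb* lower, *Calb2* higher), 3 in E3/Abca1+/- (*Pvalb* lower, *Gad2* and *Calb2* higher), 1 in E4/Abca1+/+ (*Pvalb* lower), 0 in E4/Abca1+/- and 5 over all genotypes (2 lower and 3 higher). On this scale 232 genes were lower and 7787 higher of 14093 in E3/Abca1+/+, and 257 and 8864 of 15026 in E3/Abca1+/-. The counts were 111 and 5547 of 14041 in E4/Abca1+/+, and 146 and 9537 of 15083 in E4/Abca1+/-. Of 24 changes whose sign turned, 10 had passed on either scale, namely *Cck* in E3/Abca1+/+ (0.025), *Gad2* in E3/Abca1+/- (0.22), *Gad1* (0.0065), *Lhx6* (0.081) and *Cck* (0.025) in E4/Abca1+/-, and, over all genotypes, *Gad2* (0.14), *Slc32a1* (0.053), *Lhx6* (0.094), *Sst* (0.012) and *Vip* (0.020). The other 14, within genotypes, passed on neither scale. This follows from the scaling, which moves the median of all genes to 0.24 over all genotypes, and of genes called there the share that was higher rose from 54.4% to 96.5%. In E4/Abca1+/-, 2 markers were called with thinned libraries, beside 1534 lower and 1888 higher of 13312 genes. Without mouse 8 of TBI or without the 3 mice, 10 were called, beside 2865 lower and 2668 higher of 15046 genes. Of the 30 closest pairs, 13 returned with Spearman's rho, 6 in sham mice only, 28 with a pseudocount of 0.1 and 21 without mouse 8. The other 107 counts under alternatives were within 1.5 times the value reported, among them those with DESeq2's size factors or Wald test, sex as a covariate, no filter or at least 10 counts in every mouse. Of the changes of single markers under the alternatives, 459 kept their call, of which 19 that passed in neither case turned in sign, 20 gained a call, 23 lost one, and 10 are the changes of sign named above. No paired analysis was possible because replicate numbers only follow the order of deposition.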
